A study of Mus musculus with 6 samples.

Results

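A set of 10 hypoxia-sensing genes was followed in ischemic skeletal muscle of Gpr174-/Y and WT mice. They are the 3 alpha subunits of the hypoxia-inducible factors (Hif1a, Epas1 and Hif3a), their partner Arnt, the 3 prolyl hydroxylases Egln1, Egln2 and Egln3, and the direct HIF targets Bnip3, Ankrd37 and Adm. The genes were listed by name, as sensors of hypoxia and direct HIF targets, and the reads of all transcripts of a gene were added up. All 10 are among the 18089 genes of the table, and all 10 passed the filter on low counts that left 14395 genes for testing.

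Male C57BL/6 mice, 8 to 10 weeks old, had the left femoral artery tied at both ends of a segment that was then cut out, a procedure called hindlimb ischemia (HLI). The gastrocnemius, a calf muscle below the block, was taken 7 days later. The 3 Gpr174-/Y males lack the single X-linked copy of Gpr174, a G protein-coupled receptor for lysophosphatidylserine, in all cells and not in one cell type, and the 3 WT males were littermates. All 6 libraries are labelled as ischemic muscle and non-ischemic muscle is not analysed here, so a difference reported here is one between genotypes and not a response to HLI. The labels give each library as a separate sample without saying more about its origin, so p-values measure the spread between these samples.

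Whole muscle RNA was measured as 18417111 to 19394504 estimated reads per library. Gpr174 itself had 8, 2 and 5 reads in the WT libraries and 1, 0 and 0 in the Gpr174-/Y libraries, and the skeletal muscle genes Acta1 and Ckm were abundant in all 6.

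Replicate 2 was not independent of replicates 1 and 3 in either group. Over 11851 genes with at least 50 reads in every library, a sum of 61% of replicate 1 and 39% of replicate 3 gave replicate 2 in both groups. The residual was 0.519 times counting noise in WT and 0.411 times in Gpr174-/Y, where libraries with separate reads give 1 or more, and the other 58 such sums of pairs of libraries left 1.02 or more. Gpr174-/Y replicates 1 and 2 differed by 1.02 times counting noise, whereas replicates 1 and 3 differed by 3.79 times in Gpr174-/Y and by 11.2 times in WT. Replicate 2 lay between replicates 1 and 3 for 76.8% of 9207 well-expressed genes in WT and for 68.5% in Gpr174-/Y, where exchangeable libraries give 33.3% on average. Its origin is not stated in the labels and was not tested.

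Each group thus holds the information of at most 2 separate libraries, and the SD, SE and p-values over 3 libraries given here are too small. With replicates 1 and 3 alone, edgeR called 0 genes of the whole table, while 5026 had an unadjusted p under 0.05, and no other tool was run on those 4 libraries. That fit also has fewer degrees of freedom than the fit on 6 libraries. In what follows, "called", "rose" and "fell" refer to the fit on all 6 libraries, and no such call was made without replicate 2. The values of the 10 genes from that fit are given beside each call. Their sign was kept in 10 of 10 cases. Replicate 2 was close to a weighted sum of replicates 1 and 3, so this adds no support. Fits that leave out 1 library still hold replicate 2 of at least 1 group, so their p-values are too small as well.

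Cells read oxygen through the prolyl hydroxylases, enzymes that use molecular oxygen to mark HIF alpha subunits for capture by the von Hippel-Lindau protein and destruction by the proteasome. When oxygen falls the mark is not made, the alpha subunit pairs with the constitutive subunit encoded by Arnt, and the dimer binds short DNA elements with the core ACGTG or GCGTG. The alpha subunits are controlled largely at the protein level, which RNA does not measure, whereas Egln3, Bnip3, Ankrd37 and Adm are transcribed more when HIF is active. In muscle, HIF1 is known for switching fibres toward glycolysis, and HIF2, whose alpha subunit Epas1 encodes, is abundant in endothelium.

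The HIF core elements can be read in the promoters of these genes. RefSeq promoter sequence on build GRCm38.p6 was matched for 9 of the 10 genes, all but Epas1, and 4 of them are shown here, 1 alpha subunit, 1 hydroxylase and 2 targets. Each line gives the 250 bases before the transcript start, 5′ to 3′ along the gene's strand, with every ACGTG or GCGTG and every CACGT or CACGC, their complements, in capitals. Hif1a lies on the plus strand at chr12:73907617-73907866, and Egln1 on the minus strand at chr8:124949255-124949504. Bnip3 lies on the minus strand at chr7:138909507-138909756, and Ankrd37 on the minus strand at chr8:45999851-46000100.
Hif1a: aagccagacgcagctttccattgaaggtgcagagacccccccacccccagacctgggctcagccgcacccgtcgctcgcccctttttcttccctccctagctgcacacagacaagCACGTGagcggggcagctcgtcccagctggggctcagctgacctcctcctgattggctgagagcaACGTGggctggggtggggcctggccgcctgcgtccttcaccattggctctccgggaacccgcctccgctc
Egln1: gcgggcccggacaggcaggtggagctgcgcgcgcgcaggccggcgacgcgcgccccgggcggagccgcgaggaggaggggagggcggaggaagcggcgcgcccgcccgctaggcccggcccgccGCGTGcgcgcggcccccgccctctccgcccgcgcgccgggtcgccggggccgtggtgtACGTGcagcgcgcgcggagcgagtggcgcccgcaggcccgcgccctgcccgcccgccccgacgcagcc
Bnip3: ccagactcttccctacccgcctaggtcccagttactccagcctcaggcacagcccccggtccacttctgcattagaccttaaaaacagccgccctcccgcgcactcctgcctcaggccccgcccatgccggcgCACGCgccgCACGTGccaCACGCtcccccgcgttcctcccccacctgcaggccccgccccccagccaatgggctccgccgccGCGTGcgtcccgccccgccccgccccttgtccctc
Ankrd37: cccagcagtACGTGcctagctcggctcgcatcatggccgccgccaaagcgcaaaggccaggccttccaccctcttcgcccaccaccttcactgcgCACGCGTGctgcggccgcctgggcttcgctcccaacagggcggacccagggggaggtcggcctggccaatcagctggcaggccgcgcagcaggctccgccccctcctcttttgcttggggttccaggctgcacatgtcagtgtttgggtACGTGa

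The 9 genes have 10 promoter windows in the table, since Egln2 has 2, and all 10 windows held a core element on one strand or the other, and 7 of the 10 held 2 or more. Over all 32851 mouse promoters in the same table, 38.6% held at least 1 and 16.7% held 2 or more. Matches were counted on each strand, so a CACGTG counted as 2 in these genes and over all promoters. Overlapping matches, as in the CACGCGTG of Ankrd37, were likewise counted separately. Hif1a carried the palindrome CACGTG, which reads as ACGTG on both strands, at bases 135 to 130 before the start and a further ACGTG at bases 70 to 66. The bases after this start were not found in a transcript of GENCODE, another gene annotation, unlike those of the other windows. The Hif1a positions thus rest on the RefSeq start alone. Egln1 carried GCGTG at bases 126 to 122 and ACGTG at bases 68 to 64. The Bnip3 window held 5 matches, among them CACGTG at bases 108 to 103, and Ankrd37 held 4, the nearest of them 6 to 2 bases before the start. All 4 windows shown held ACGTG on 1 strand or the other. Of the windows not shown, those of Hif3a, Arnt, Adm and 1 of the 2 of Egln2 held none, and those of Egln3 and the other of Egln2 did. CACGTG occurred in 6.02% of all promoters and ACGTG on either strand in 16.6%. The shown windows held 66.4% to 86.0% G and C, against a median of 52.4% over all promoters, and every core element contains the pair CG. These matches describe letters in a window, and binding was not measured.

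Of the 10 genes, Hif1a rose in Gpr174-/Y muscle and 7 fell, namely Epas1, Hif3a, Egln1, Egln2, Egln3, Bnip3 and Adm, at an adjusted p under 0.05 by edgeR's quasi-likelihood test with Benjamini-Hochberg adjustment over all 6 libraries. None of these calls was made without replicate 2, where the edgeR adjusted p of the 10 genes ran from 0.0583 to 0.593. Arnt and Ankrd37 did not pass. Over all genes tested, 27.0% were called higher, 27.6% lower and 54.6% in either direction, so a call in this contrast was common. The median log2 fold change of the 10 genes was -0.53, against 0.00 over all genes tested. None of the 10 also passed an absolute log2 fold change of 1, which 8.29% of all genes did together with the adjusted p. On CPM, reads scaled to a common library size, set by TMM (trimmed mean of M values), a method that sets the bulk of genes to no change, the groups did not overlap for any of the 10, as for 65.6% of all genes.

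A few muscle fibre genes took up a large share of the reads, and the genes were therefore also compared under another scaling. The 15 mature fibre markers held 17.3%, 15.6% and 13.1% of all reads in WT replicates 1, 2 and 3, and 7.27%, 7.06% and 6.72% in Gpr174-/Y. Scaling by total reads alone moved the median log2 fold change of all genes from 0.00 to 0.28, and 50.7% of all genes were then called higher and 14.0% lower. Under that scaling 2 of the 10 genes were called higher (Hif1a and Arnt) and 4 lower (Epas1, Egln1, Egln2 and Bnip3), their median was -0.25, and 6 of the 10 did not overlap between groups, against 72.4% of all genes. The calls of Hif1a, Epas1, Egln1, Egln2 and Bnip3 thus had the same direction under both scalings, while those of Hif3a, Egln3 and Adm were made under TMM and not under total reads. These are bulk samples, in which fewer cells of a type and less RNA per cell cannot be told apart.

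**Figure D1:**
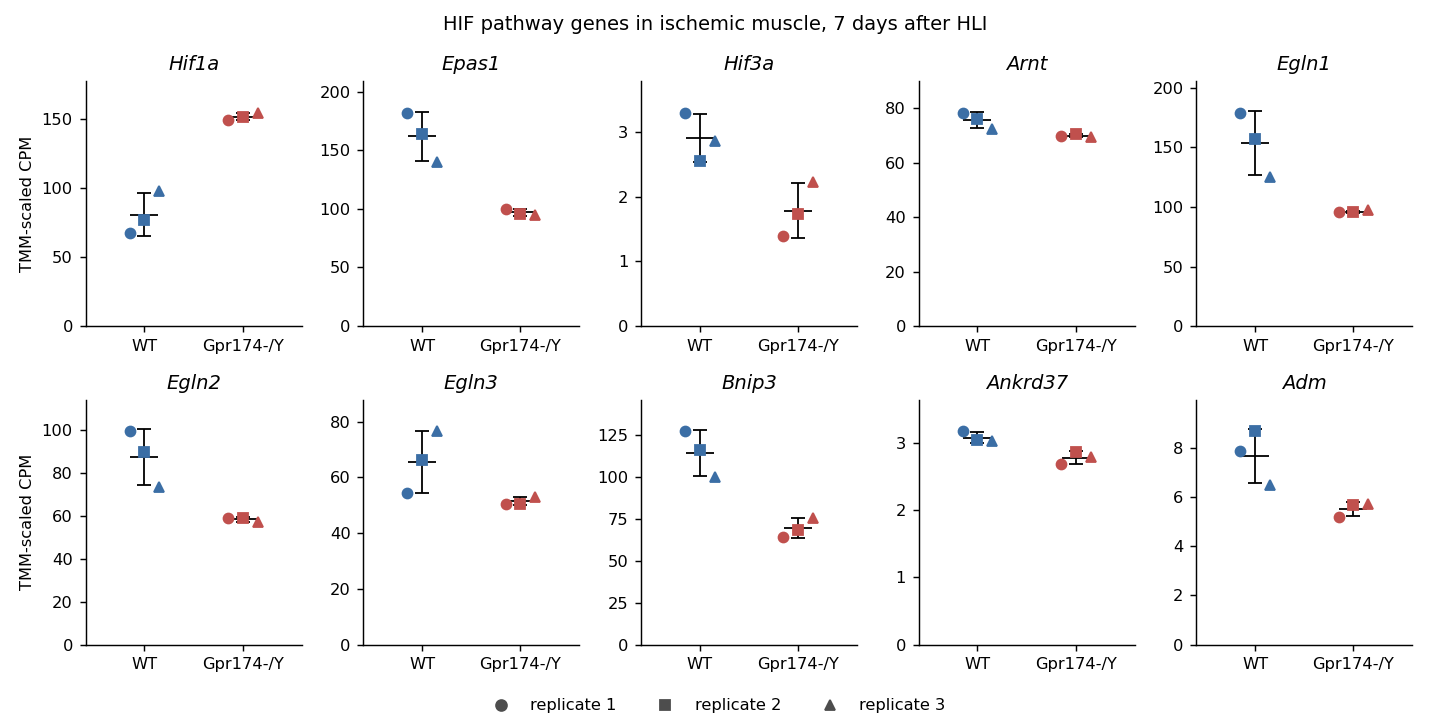
TMM-scaled CPM (vertical axes, from 0) of the 10 genes in the 3 WT (blue) and 3 Gpr174-/Y (red) libraries. Each point is a library, the symbol its replicate number, and the bars the mean ± SD. Hif1a is the one gene whose Gpr174-/Y libraries (149, 151 and 154) lie above all WT libraries (67.0 to 97.7), and in the other 9 panels they lie below.

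Hif1a, the alpha subunit that is broadly expressed and drives glycolytic genes, was measured at 67.0, 76.8 and 97.7 TMM-scaled CPM in WT replicates 1, 2 and 3. In Gpr174-/Y it was measured at 149, 151 and 154. The Gpr174-/Y libraries were close together and all above the highest WT library, replicate 3. Hif1a rose 1.88-fold, a log2 fold change of 0.91 ± 0.13 (SE, n = 3 against 3; edgeR adjusted p = 0.00196), and by 1.18 on the log2 scale with total-read scaling (adjusted p = 0.00136). Leaving out 1 library at a time, which keeps replicate 2 of at least 1 group, gave log2 fold changes from 0.80 to 1.08. All were called, and the highest was that without WT replicate 3. Without replicate 2 of both groups the log2 fold change was 0.88 and was not called (edgeR adjusted p = 0.059).

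Epas1, which encodes the HIF2 alpha subunit, ran the other way. It was measured at 182, 164 and 140 TMM-scaled CPM in WT and at 100, 96.0 and 95.0 in Gpr174-/Y. The lowest WT library, again replicate 3, stood above all Gpr174-/Y libraries. Epas1 fell to 59.9% of the WT level, a log2 fold change of -0.74 ± 0.10 (SE, n = 3 against 3; edgeR adjusted p = 0.00157), and to a log2 fold change of -0.46 with total-read scaling (adjusted p = 0.00202). The log2 fold change was, without replicate 2 of either group, -0.73 (edgeR adjusted p = 0.0583).

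Hif3a, whose products include short forms that lack a full activation domain, was scarce, with 53, 43 and 51 reads in WT and 29, 37 and 48 in Gpr174-/Y. Its TMM-scaled CPM values were 3.30, 2.56 and 2.87 in WT and 1.39, 1.74 and 2.23 in Gpr174-/Y. The highest Gpr174-/Y library, replicate 3, lay just below the lowest WT library, replicate 2. The log2 fold change of -0.70 ± 0.20 (SE, n = 3 against 3) passed with an edgeR adjusted p of 0.0238. It did not pass without WT replicate 1 (adjusted p = 0.064), without Gpr174-/Y replicate 1 (0.0632) or without Gpr174-/Y replicate 2 (0.0804), nor with total-read scaling (-0.42, adjusted p = 0.114). The fit on replicates 1 and 3 alone gave a log2 fold change of -0.76 (edgeR adjusted p = 0.151).

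Arnt, the partner that the alpha subunits share, had the smallest fold change of the 10 genes under TMM. It was measured at 78.2, 75.9 and 72.4 TMM-scaled CPM in WT and at 69.9, 70.5 and 69.3 in Gpr174-/Y. The ranges lay side by side without overlap, with a log2 fold change of -0.11 ± 0.05 (SE, n = 3 against 3; edgeR adjusted p = 0.087). Its direction turned with total-read scaling, where the log2 fold change was 0.16 (adjusted p = 0.0169), below the shift of 0.28 that this scaling gave to all genes. Without WT replicate 3 it was called lower under TMM, at -0.13 (adjusted p = 0.0353). In the fit without replicate 2 the log2 fold change was -0.11 (edgeR adjusted p = 0.47).

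Like Epas1, the 3 prolyl hydroxylases were called lower. Egln1, the main oxygen sensor that sets the level of HIF1 alpha in most tissues, was measured at 179, 157 and 125 TMM-scaled CPM in WT and at 95.7, 95.5 and 97.1 in Gpr174-/Y. WT libraries were spread widely and Gpr174-/Y libraries hardly at all. Egln1 fell with a log2 fold change of -0.68 ± 0.12 (SE, n = 3 against 3; edgeR adjusted p = 0.00434), and of -0.40 with total-read scaling (adjusted p = 0.0116). The log2 fold change was, without replicate 2 of either group, -0.66 (edgeR adjusted p = 0.0799).

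Egln2, a hydroxylase whose own transcription does not depend on hypoxia, was measured at 99.5, 89.8 and 73.7 TMM-scaled CPM in WT and at 59.0, 59.2 and 57.3 in Gpr174-/Y. The pattern over libraries was that of Egln1, with WT replicate 3 nearest to the Gpr174-/Y group. Egln2 fell with a log2 fold change of -0.58 ± 0.11 (SE, n = 3 against 3; edgeR adjusted p = 0.00436), and of -0.30 with total-read scaling (adjusted p = 0.0156). The fit on replicates 1 and 3 alone gave a log2 fold change of -0.57 (edgeR adjusted p = 0.0791).

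Egln3, a hydroxylase that is itself a strong HIF target, was measured at 54.3, 66.2 and 76.5 TMM-scaled CPM in WT and at 50.5, 50.6 and 53.1 in Gpr174-/Y. Here WT replicate 1 was nearest to the Gpr174-/Y libraries, whereas for Egln1 and Egln2 it was farthest from them. The log2 fold change was -0.35 ± 0.12 (SE, n = 3 against 3; edgeR adjusted p = 0.0392). The call was lost without WT replicate 2 (adjusted p = 0.109) or without Gpr174-/Y replicate 1 (0.109), 2 (0.112) or 3 (0.0841), and with total-read scaling (-0.09, adjusted p = 0.62). Without WT replicate 3 it stood at -0.22 (adjusted p = 0.0446). In the fit without replicate 2 the log2 fold change was -0.34 (edgeR adjusted p = 0.238).

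Among the direct targets, Bnip3, which tags mitochondria for removal by autophagy, had the largest fold change. It was measured at 127, 116 and 100 TMM-scaled CPM in WT and at 64.2, 68.5 and 75.7 in Gpr174-/Y. All WT libraries lay above all Gpr174-/Y libraries, and the log2 fold change was -0.72 ± 0.10 (SE, n = 3 against 3; edgeR adjusted p = 0.00197), or -0.44 with total-read scaling (adjusted p = 0.00592). Leaving out any 1 library did not change this call or those of Epas1, Egln1 and Egln2, but each of these fits kept replicate 2 of at least 1 group. Without replicate 2 of both groups the log2 fold change of Bnip3 was -0.70 and was not called (edgeR adjusted p = 0.0607).

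Ankrd37, an ankyrin repeat protein gene that is induced by HIF1, had 51, 51 and 54 reads in WT and 56, 61 and 60 in Gpr174-/Y. Its TMM-scaled CPM values were 3.17, 3.04 and 3.03 in WT and 2.68, 2.87 and 2.79 in Gpr174-/Y. The ranges were narrow and close together, and a difference was not detectable at this depth: the log2 fold change was -0.15 ± 0.16 under TMM (SE, n = 3 against 3; edgeR adjusted p = 0.429) and turned to 0.13 with total-read scaling (adjusted p = 0.482). The log2 fold change was, without replicate 2 of either group, -0.18 (edgeR adjusted p = 0.593).

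Adm, which encodes the vasodilator peptide adrenomedullin, had 127, 146 and 116 reads in WT and 109, 121 and 123 in Gpr174-/Y. Its TMM-scaled CPM values were 7.90, 8.69 and 6.52 in WT and 5.21, 5.70 and 5.72 in Gpr174-/Y. WT replicate 3 was the nearest to the Gpr174-/Y group. The log2 fold change of -0.47 ± 0.12 (SE, n = 3 against 3) passed with an edgeR adjusted p of 0.0167. It did not pass without WT replicate 2 (adjusted p = 0.0741), Gpr174-/Y replicate 1 (0.0594) or Gpr174-/Y replicate 2 (0.0533), nor with total-read scaling (-0.20, adjusted p = 0.177). The fit on replicates 1 and 3 alone gave a log2 fold change of -0.40 (edgeR adjusted p = 0.195).

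**Figure D2:**
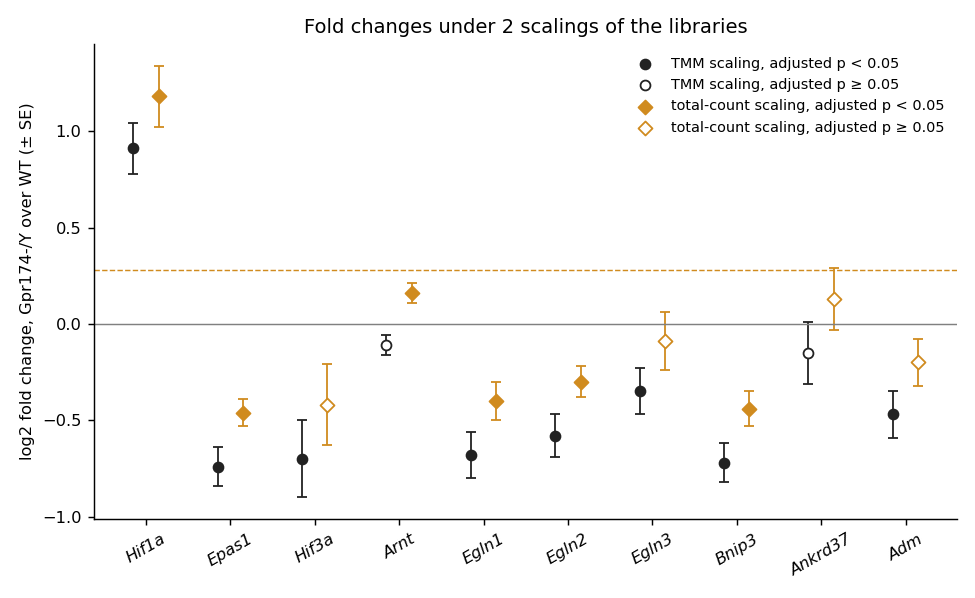
Log2 fold change of Gpr174-/Y over WT (vertical axis, ± SE) of the 10 genes under TMM scaling (black) and total-read scaling (orange), filled where the edgeR adjusted p was under 0.05; the dashed line is the median of all genes under total-read scaling, 0.28. Hif1a stands alone above it under both scalings (0.91 and 1.18), and Arnt and Ankrd37 are the genes whose sign differs between scalings.

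Levels were compared between genes on FPKM, the deposited value scaled for transcript length and library size. In WT muscle the order was Bnip3 (60.7 ± 4.66 FPKM, SD, n = 3), Egln2 (40.5 ± 4.67), Egln1 (40.0 ± 5.38), Epas1 (27.7 ± 2.41), Egln3 (22.8 ± 4.85), Hif1a (17.0 ± 4.06) and Arnt (16.1 ± 0.157). Adm (5.19 ± 0.617), Ankrd37 (3.12 ± 0.131) and Hif3a (0.387 ± 0.0416) followed far below. In this order Egln2 and Egln1 overlapped over libraries, as did Epas1 with Egln3, Egln3 with Hif1a and Hif1a with Arnt, while the other neighbours did not overlap.

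In Gpr174-/Y muscle Hif1a moved up to the position after Bnip3, with 38.4 ± 1.57 FPKM (SD, n = 3) against 44.8 ± 4.62. Egln2 (32.6 ± 0.454), Egln1 (30.4 ± 0.816), Egln3 (21.5 ± 1.02), Epas1 (20.1 ± 0.255) and Arnt (18.0 ± 0.29) came next, and Adm (4.54 ± 0.306), Ankrd37 (3.43 ± 0.159) and Hif3a (0.29 ± 0.0755) were again lowest. No neighbours overlapped in this group. FPKM carries no TMM scaling, and on it the groups overlapped for Hif3a, Egln3, Ankrd37 and Adm.

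Ratios within a library do not depend on how libraries are scaled against each other. In all, 11 ratios of FPKM were tested by exact 2-sided permutation over libraries, for which 3 against 3 can give no p below 0.1. Of the 11, 7 did not overlap between groups. Among single genes, 65.6% did not overlap on TMM-scaled CPM and 72.4% with total-read scaling, so a lack of overlap was common. No such share was computed for ratios. Without replicate 2, 2 against 2 libraries could give no p below 0.333. The ratio of Epas1 to Hif1a was 2.22, 1.74 and 1.17 in WT replicates 1, 2 and 3, and 0.551, 0.522 and 0.501 in Gpr174-/Y. Epas1 was thus above Hif1a in all 3 WT libraries and below it in all 3 Gpr174-/Y libraries. The mean log2 difference was -1.66 (exact permutation p = 0.1, adjusted 0.157, n = 3 against 3, with replicate 2 counted). Leaving out WT replicate 1 gave -1.45 and leaving out WT replicate 3 gave -1.91.

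The ratio of Arnt to Hif1a was 1.18, 1.01 and 0.757 in WT and 0.478, 0.478 and 0.455 in Gpr174-/Y, a log2 difference of -1.04 without overlap (exact permutation p = 0.1, adjusted 0.157, n = 3 against 3). That of Hif3a to Hif1a differed by -1.64, also without overlap and with the same exact p. Egln2 and Egln1 kept nearly the same ratio, 0.991, 1.02 and 1.03 in WT and 1.08, 1.09 and 1.05 in Gpr174-/Y, a log2 difference of 0.08 (exact permutation p = 0.1, adjusted 0.157, n = 3 against 3). The ratio of Egln3 to Egln1 was 0.401, 0.558 and 0.808 in WT and 0.696, 0.700 and 0.722 in Gpr174-/Y. WT spanned the whole Gpr174-/Y range, and the log2 difference of 0.32 did not stand out (exact permutation p = 0.4, adjusted 0.44, n = 3 against 3).

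Muscle markers, vessel markers and macrophage markers moved in the same libraries, and they are given here beside the 10 genes. Which cells express each of the 10 genes was not measured in these bulk samples. All 15 mature fibre markers were called lower, with a median log2 fold change of -1.45, led by Mb (-2.02 ± 0.08, SE; edgeR adjusted p = 0.000237) and Myh2 (-2.80 ± 0.22; 0.00062). Of 10 markers of regenerating fibres 7 were called higher and 0 lower, with a median of 0.99. Among the 7 were Chrna1 (1.14 ± 0.08, edgeR adjusted p = 0.00045) and Chrng (1.68 ± 0.17, 0.0009), subunits of the acetylcholine receptor. The other 3 were not called, namely Myh3 (0.85 ± 0.41, 0.124), Myh8 (0.20 ± 0.19, 0.412) and Actc1 (-0.28 ± 0.15, 0.144). Of 12 endothelial markers 11 were called lower, with a median of -0.78, such as Robo4 (-0.84 ± 0.05; 0.000375) and Cldn5 (-0.97 ± 0.08; 0.000717), while Vwf was called higher (0.38 ± 0.05; 0.00205). Of 10 macrophage markers 9 were called higher and 0 lower, with a median of 0.77, such as Lyz2 (1.00 ± 0.12; 0.00136) and Mrc1 (0.54 ± 0.08; 0.00193). No marker of these lists was at 0 in every library. Over all genes tested, 27.0% were called higher and 27.6% lower.

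The summed FPKM of the mature fibre markers ranged from 93400 to 117000 in WT and from 46100 to 52500 in Gpr174-/Y. Bnip3 made up 0.0556%, 0.0569% and 0.0597% of that sum in WT and 0.0773%, 0.0881% and 0.108% in Gpr174-/Y, so that against fibre RNA it stood higher in Gpr174-/Y by 0.65 on the log2 scale (exact permutation p = 0.1, adjusted 0.157, n = 3 against 3). Egln3 stood higher against the fibre sum by 1.03, with shares of 0.0154%, 0.0211% and 0.0297% in WT and 0.0395%, 0.0422% and 0.0491% in Gpr174-/Y (same exact p). For Hif3a the log2 difference of 0.65 came with overlapping groups (exact permutation p = 0.2, adjusted 0.244, n = 3 against 3). In ratios formed after the values had been seen, and not tested, Egln1 held 0.0384%, 0.0379% and 0.0367% of the fibre sum in WT and 0.0567%, 0.0604% and 0.0680% in Gpr174-/Y. Egln2 in the same way held 0.0380%, 0.0387% and 0.0379% in WT and 0.0611%, 0.0655% and 0.0714% in Gpr174-/Y. Bnip3, Egln1 and Egln2 were thus lower in whole Gpr174-/Y muscle but larger relative to the fibre markers. Egln3 was larger relative to the fibre markers too, while its FPKM overlapped between groups. The fibre sum itself was lower in Gpr174-/Y, and the median log2 fold change of all genes with total-read scaling was 0.28. A gene without change between groups would thus also be larger against this sum. The same ratio was not computed for all genes, so these values do not set the 4 genes apart. The part of the fibre content in these values was not tested.

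The summed FPKM of the endothelial markers ranged from 394 to 411 in WT and from 279 to 305 in Gpr174-/Y. Epas1 came to 7.29%, 6.89% and 6.39% of that sum in WT and to 6.68%, 6.74% and 7.19% in Gpr174-/Y. The groups overlapped fully, with a log2 difference of 0.00 (exact permutation p = 1, n = 3 against 3). Adm came to 1.25%, 1.44% and 1.17% of the endothelial sum in WT and to 1.37%, 1.58% and 1.71% in Gpr174-/Y, a log2 difference of 0.27 with overlap (exact permutation p = 0.2, adjusted 0.244, n = 3 against 3).

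The summed FPKM of the macrophage markers ranged from 1030 to 1740 in WT and from 3010 to 3110 in Gpr174-/Y, and WT replicate 3 was highest of its group, as it was for Hif1a. In a ratio formed after the values had been seen, and not tested, Hif1a came to 1.31%, 1.23% and 1.23% of that sum in WT and to 1.23%, 1.24% and 1.29% in Gpr174-/Y, with overlap and a log2 difference of -0.01. Against the summed regenerating fibre markers, a further ratio of this kind, Hif1a came to 0.408%, 0.453% and 0.548% in WT and to 0.708%, 0.789% and 0.956% in Gpr174-/Y, without overlap and with a log2 difference of 0.80. Actc1 was the largest part of that sum. It was at 2381 to 2498 FPKM in WT and 2031 to 2766 in Gpr174-/Y, where the sum was 3300 to 3910 and 4190 to 5230. Actc1 overlapped between groups and was not called (log2 fold change -0.28, edgeR adjusted p = 0.144). This ratio therefore says little about the other markers of the list. The part of macrophage or regenerating fibre content in the rise of Hif1a was not tested.

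**Figure D3:**
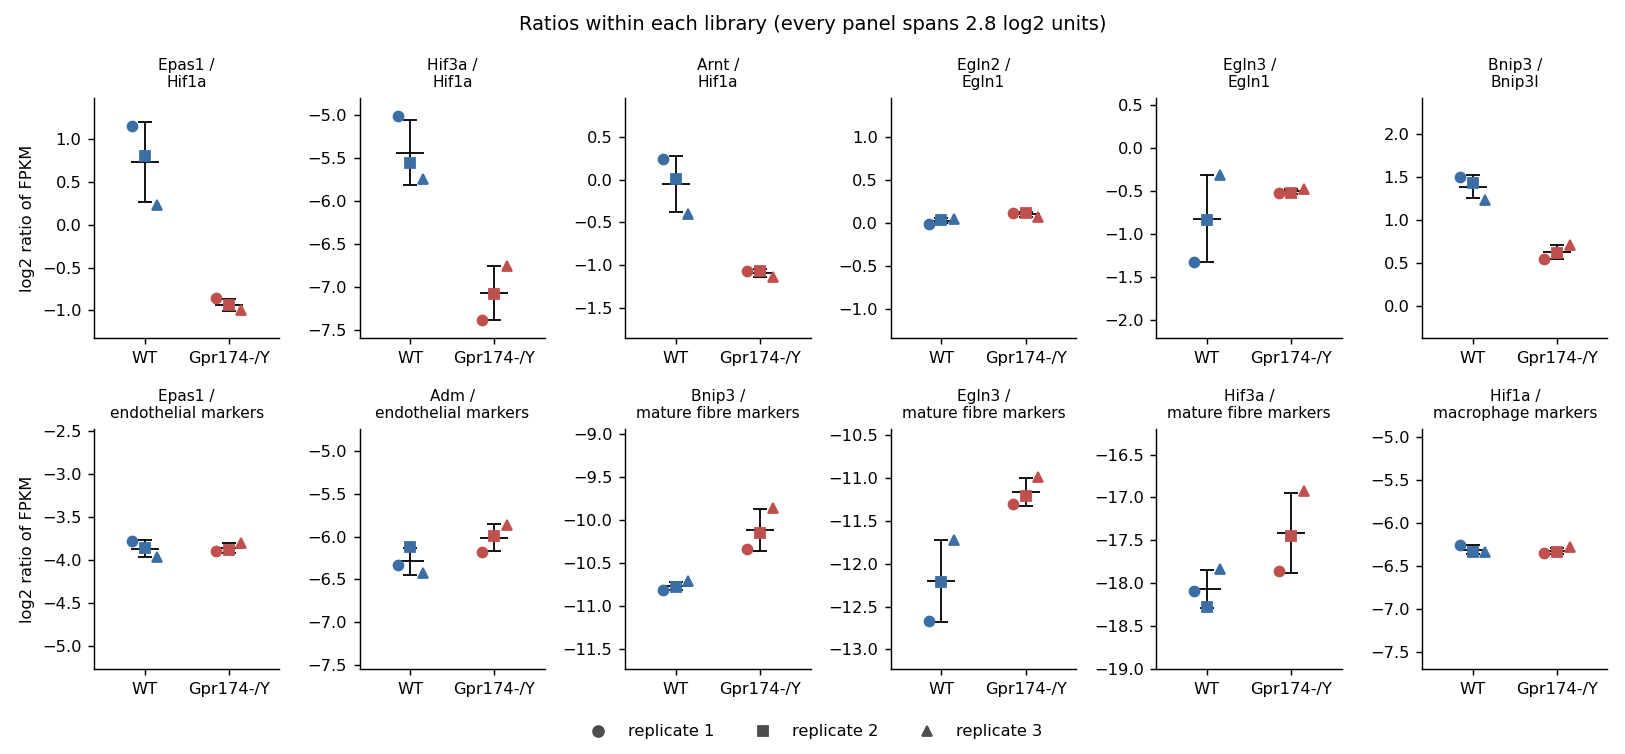
Log2 ratio of FPKM within each library (vertical axes, each spanning the same number of log2 units) for the 11 tested ratios and, last, Hif1a over the macrophage markers; points are libraries, symbols replicate numbers, and bars the mean ± SD of WT (blue) and Gpr174-/Y (red). Epas1 over Hif1a separates the groups (difference -1.66), whereas Epas1 over the endothelial markers (0.00) and Hif1a over the macrophage markers (-0.01) overlap. The last ratio was formed after the values had been seen and was not tested. Other ratios of that kind are not drawn, among them Hif1a over the regenerating fibre markers, which did not overlap (0.80).

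The partners that handle HIF protein gave a mixed picture. Of 20 genes of oxygen sensing besides the 10 (factor-inhibiting hydroxylase, ubiquitin ligase subunits, coactivators and chaperones), 4 were called higher and 8 lower, with a median log2 fold change of -0.15. With total-read scaling 8 were called higher and 2 lower. For this list and those that follow, the shares over all genes tested were 27.0% higher and 27.6% lower under TMM. With total-read scaling those shares were 50.7% and 14.0%. Hif1an, the asparagine hydroxylase that blocks coactivator binding, was measured at 180, 151 and 125 TMM-scaled CPM in WT and at 107, 107 and 109 in Gpr174-/Y, and it fell by 0.50 on the log2 scale (SE 0.12; edgeR adjusted p = 0.0135). Unlike Egln1 and Egln2, it overlapped between groups on FPKM and was not called with total-read scaling (-0.22, adjusted p = 0.0964). Vhl, the subunit that recognises hydroxylated HIF, overlapped between groups, with 14.3, 18.9 and 20.3 in WT and 19.0, 19.9 and 19.7 in Gpr174-/Y (log2 fold change 0.13 ± 0.13; edgeR adjusted p = 0.406).

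Among the partners with the clearest changes, Hsp90aa1, a chaperone that stabilises HIF1 alpha, rose from 108 to 127 TMM-scaled CPM in WT to 194 to 226 in Gpr174-/Y (log2 fold change 0.85 ± 0.09; edgeR adjusted p = 0.0009). Hsp90ab1, at a mean of 1240 TMM-scaled CPM in WT against 117 for Hsp90aa1, was not called under TMM (0.09 ± 0.07; edgeR adjusted p = 0.339). Os9 rose (0.39 ± 0.06; 0.00215). Cited4, a protein that competes for the coactivators p300 and CBP, was at 42.1 to 73.0 in WT and 18.1 to 22.7 in Gpr174-/Y, and it fell by 1.49 on the log2 scale (SE 0.20; 0.00171). Cited2 was not called under TMM (-0.18 ± 0.11; edgeR adjusted p = 0.218) and overlapped between groups. Rbx1, the RING subunit of the ligase, fell by 0.37 (SE 0.05; 0.00227) under TMM and was not called with total-read scaling (-0.09, adjusted p = 0.116).

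Other known HIF targets did not share 1 direction. Of 30 non-glycolytic targets 29 were tested, and 13 were called higher, 7 lower and 9 in neither direction, with a median log2 fold change of 0.20, and 7 also passed the fold threshold. With total-read scaling 18 were called higher and 5 lower, with a median of 0.47. That scaling called 50.7% of all genes higher and 14.0% lower, with a median of 0.28. Vegfa, the main angiogenic growth factor of hypoxic tissue, was at 204, 186 and 157 TMM-scaled CPM in WT and at 86.7, 80.8 and 73.7 in Gpr174-/Y. All WT libraries were far above all Gpr174-/Y libraries, and it fell by 1.18 on the log2 scale (SE 0.11; edgeR adjusted p = 0.000778). Ppp1r3c, which directs glycogen storage, fell as well (-1.55 ± 0.17; 0.00112). P4ha1 and P4ha2, the catalytic subunits of the collagen prolyl hydroxylase, rose (0.48 ± 0.08; 0.00333 and 0.57 ± 0.05; 0.00073).

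Of 22 glycolytic targets 6 were called higher and 13 lower, with a median log2 fold change of -0.68, and with total-read scaling 9 higher and 13 lower, with a median of -0.40. On the lower side were Pgk1 (-0.99 ± 0.16; edgeR adjusted p = 0.00307), Ldha (-0.88 ± 0.20; 0.00993), Gbe1 (-1.06 ± 0.11; 0.00105) and Pdk1 (-0.54 ± 0.06; 0.000989), which restrains pyruvate entry into mitochondria. On the higher side were Pgam1 (0.95 ± 0.14; 0.00203), a phosphoglycerate mutase, and Slc2a1, a glucose transporter. Slc2a1 was at 11.3, 14.2 and 16.9 TMM-scaled CPM in WT and at 25.5, 27.4 and 31.5 in Gpr174-/Y, without overlap (log2 fold change 0.99 ± 0.15; edgeR adjusted p = 0.00225).

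The receptor genes of Adm were mostly called lower under TMM. Of 8 genes of adrenomedullin receptors and related peptides 5 were tested, 4 were called lower and 0 higher, and the median log2 fold change was -0.59. Ramp3 was not called (-0.10 ± 0.37, SE; edgeR adjusted p = 0.829) and overlapped between groups. With total-read scaling 3 were called lower. Ramp2, the accessory protein that gives the receptor its preference for adrenomedullin, was at 69.3, 65.5 and 61.2 TMM-scaled CPM in WT and at 33.4, 31.2 and 29.8 in Gpr174-/Y, and it fell by 1.05 on the log2 scale (SE 0.07; edgeR adjusted p = 0.000425). Its partner Calcrl, the receptor proper, fell by 0.47 (SE 0.14; 0.0308) under TMM, but overlapped between groups on FPKM and was not called with total-read scaling (-0.19, adjusted p = 0.209). Ackr3, a decoy receptor for adrenomedullin, fell by 0.59 (SE 0.07; 0.00114). The endothelial marker sum was lower in the same libraries, and its part in these values was not tested.

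The mitophagy genes around Bnip3 were mostly lower under TMM. Of 12 such genes 10 were called lower and 0 higher, with a median log2 fold change of -0.34, whereas with total-read scaling 2 were called higher and 4 lower. Bnip3l, the close relative of Bnip3, stood at 84.2, 80.3 and 79.3 TMM-scaled CPM in WT and at 82.1, 83.6 and 86.6 in Gpr174-/Y, overlapping between groups (log2 fold change 0.05 ± 0.05; edgeR adjusted p = 0.424), and with total-read scaling it was called higher (0.32, adjusted p = 0.00248). The ratio of Bnip3 to Bnip3l was 2.83, 2.69 and 2.35 in WT and 1.46, 1.53 and 1.64 in Gpr174-/Y, a log2 difference of -0.76 without overlap (exact permutation p = 0.1, adjusted 0.157, n = 3 against 3). Map1lc3a, an autophagosome membrane protein, and Optn, a cargo receptor for damaged mitochondria, fell (-0.99 ± 0.11; edgeR adjusted p = 0.00104 and -0.98 ± 0.12; 0.00122).

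**Figure D4:**
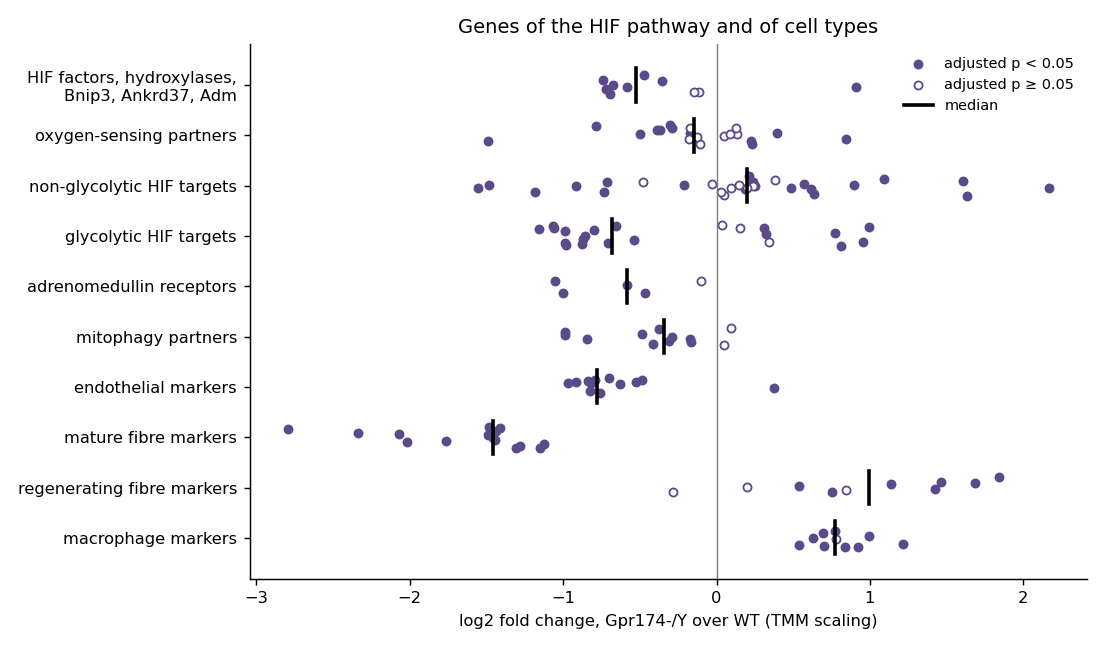
Log2 fold change of Gpr174-/Y over WT (horizontal axis, TMM scaling) for each tested gene of the HIF lists and of the marker lists; filled points had an edgeR adjusted p under 0.05 and the black line is the list's median. The medians run from -1.45 for mature fibre markers through -0.53 for the 10 genes to 0.99 for regenerating fibre markers.

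The table also splits the reads of a gene over its RefSeq transcripts by estimation, which is uncertain where transcripts share most of their sequence, so the shares are given without a test. Epas1, Egln3, Bnip3 and Adm have 1 transcript in the table, and the reads of Epas1, Bnip3 and Adm were still not whole numbers in some libraries, so a small part of them was shared with other genes. Egln1 was read almost wholly as NM_053207.2, at 94.2% to 100% of its reads, and Egln2 mainly as NM_053208.4, at 76.8% to 84.6%. For Hif3a all reads were placed on NM_016868.3 in WT replicates 1 and 2, and on NM_001162950.1 in WT replicate 3 and all Gpr174-/Y libraries. With at most 53 reads per library this placement follows few reads.

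For Hif1a the predicted transcript XM_006515478.4 took 53.2%, 42.1% and 49.9% of the reads in WT and 38.8%, 26.8% and 40.6% in Gpr174-/Y, without overlap of the groups. NM_010431.2 took 27.7% to 49.5% in the 6 libraries, and the predicted transcript XM_017314961.2 took 4.69% ± 5.95 in WT and 16.8% ± 6.33 in Gpr174-/Y (SD, n = 3), with overlap of the groups. For Arnt the share of NM_009709.4 was 48.2%, 54.5% and 33.8% in WT and 19.1%, 27.8% and 17.6% in Gpr174-/Y, without overlap. NM_001037737.2 took 25.2% of the Arnt reads in WT replicate 1 and almost none in WT replicates 2 and 3, against 40.2%, 32.0% and 32.3% in Gpr174-/Y. The estimated split of Arnt thus also varied within WT, while the summed Arnt level hardly varied. For XM_006515478.4 and NM_009709.4, replicate 2 lay outside the range of replicates 1 and 3 in both groups. A weighted sum of those replicates would lie between them, so the split carries estimation error. Whether the lack of overlap between groups exceeds that error was not tested.

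**Figure D5:**
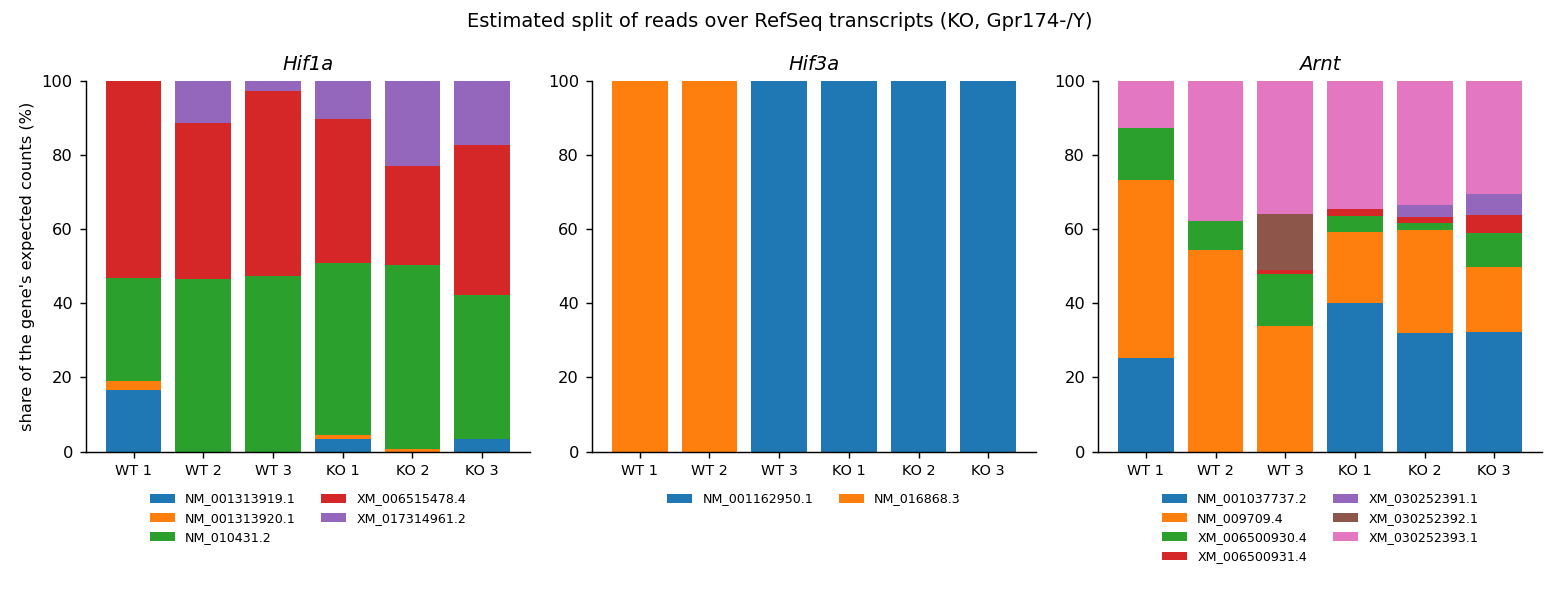
Share of a gene's estimated reads (vertical axis, percent) placed on each RefSeq transcript of Hif1a, Hif3a and Arnt in the 6 libraries, 1 stacked bar per library (KO, Gpr174-/Y). Hif3a switches wholly between NM_016868.3 (WT replicates 1 and 2) and NM_001162950.1 (the other 4 libraries), on at most 53 reads per library.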

How the data were processed

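RNA of ischemic gastrocnemius muscle, in 6 libraries, was sequenced on a BGISEQ platform according to the methods, while the labels name a TruSeq kit. Expected counts, estimated reads that can be fractional, were deposited for 58843 RefSeq transcripts and carry no normalization. The deposited FPKM are scaled for transcript length and library size. The deposited table also holds TPM, which were not used, as were the authors' group means. The submitters' processing notes name HISAT2 2.0.4, Bowtie2 2.2.5, RSEM 1.2.12 and GRCm39, without a role or order. Strand use is not given in the sources used here, so reads of overlapping antisense transcripts cannot be told apart from those of a gene.

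Groups came from the sample titles. Expected counts were summed per Entrez gene and rounded, and 18037 of 18089 identifiers were matched to a symbol. Genes were compared with edgeR 4.0.16 in R 4.3.3 (filterByExpr, TMM, quasi-likelihood F-test with robust dispersions, Benjamini-Hochberg over all genes tested, threshold 0.05). The SE is the log2 fold change divided by the statistic that belongs to its p. DEGseq, the tool of the study, was not installed, and its absolute log2 fold change threshold of 1 was kept as a second rule. Replicates were compared by their difference, and by the residual of each library around a weighted sum of 2 others, relative to Poisson counting noise (median over genes). Ratios were compared by exact permutation over libraries. Alternatives were DESeq2 1.42.0, limma 3.58.1 (voom, or log2 FPKM plus 1 or 0.1 for genes of at least 1 FPKM in 3 libraries), other size factors, other filters, a replicate block and fewer libraries. Promoters were read from a RefSeq table on GRCm38.p6, and no coordinates were converted.

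All 10 genes are named with every library's value. From each other list the genes named are the 2 of lowest p among those called in each direction, and Vegfa, Hif1an, Vhl, Calcrl, Ramp2, Bnip3l, Slc2a1, Pgk1 and Ldha. Myh3, Myh8 and Actc1 are named as the regenerating fibre markers that were not called. Ramp3 is named as the tested adrenomedullin receptor gene that was not called, and Hsp90ab1 and Cited2 as relatives of Hsp90aa1 and Cited4. The genes and lists were chosen with earlier results of these data known.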

Additional observations from a re-analysis of the deposited data

How the results depend on the processing

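Hif1a was called higher, and Epas1, Egln1, Egln2 and Bnip3 lower, under every alternative except the fit on replicates 1 and 3 alone. All the alternatives with these calls kept replicate 2 of at least 1 group, so they do not show that the calls hold without it. In that fit 0 of the 10 genes were called higher and 0 lower, 0 and 0 of the non-glycolytic targets, and 0 of all genes by edgeR (5026 at an unadjusted p under 0.05). It uses fewer libraries and leaves out replicate 2, which was not independent of the others. With total-read scaling, and with limma on log2(FPKM + 1) and on log2(FPKM + 0.1), 2 of the 10 genes were called higher, 4 lower and 1 past both thresholds; by construction neither FPKM fit carries TMM factors, and Hif3a was removed there by the filter. In the same 3 settings the log2 fold change of Arnt turned to 0.16, 0.15 and 0.16 and that of Ankrd37 to 0.13, 0.11 and 0.13. Leaving out 1 library gave 4 to 8 genes called lower, 1 called higher throughout, and 0 to 1 past both thresholds, the 1 being Hif1a without WT replicate 3. It gave 9 to 14 non-glycolytic targets called higher and 5 to 7 lower, and 5459 to 9166 of all genes called, against 7863 with all libraries. With upper-quartile normalization Egln3 had an adjusted p of 0.0511. Same-numbered libraries are different mice, and the correlations of their deviations from the group means were 0.005, -0.051 and -0.01, so the numbers do not pair them. A replicate block called 6810 of all genes and took the adjusted p of Hif3a to 0.0564. Reads per library limit Hif3a, Ankrd37 and Adm.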

Other observations

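Markers of other cell types in the muscle did not share 1 direction. The calls are those of the fit on all 6 libraries, and none was made without replicate 2. Over all genes tested, that fit called 27.0% higher and 27.6% lower. Of 8 fibroblast markers 3 were called higher and 4 lower by edgeR's quasi-likelihood test, with a median log2 fold change of -0.09: the collagen genes Col1a1 (0.87 ± 0.19, SE; adjusted p = 0.00916) and Col1a2 (0.79 ± 0.16; 0.00588) rose, and Lum (-0.81 ± 0.06; 0.000529) and Pi16 (-1.12 ± 0.14; 0.00139), a marker of resting adventitial fibroblasts, fell. Of 8 smooth muscle and pericyte markers 4 were called higher and 3 lower, with a median of 0.06. Acta2 (1.20 ± 0.15; 0.00139) and Cspg4 (0.31 ± 0.04; 0.00165) rose, while the pericyte genes Kcnj8 (-1.12 ± 0.07; 0.000409) and Rgs5 (-0.82 ± 0.13; 0.00256) fell.

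Of 7 adipocyte markers 2 were called higher, Adipoq (0.90 ± 0.20; edgeR adjusted p = 0.00817) and Plin1 (0.85 ± 0.19; 0.00961), and 1 lower, Fabp4 (-0.82 ± 0.06; 0.000477), which capillary endothelium also expresses. Of 7 neutrophil markers 2 were tested, and Csf3r rose (0.63 ± 0.15; 0.0129) and Cxcr2 fell (-0.57 ± 0.15; 0.0193) under TMM, while with total-read scaling Cxcr2 was not called (-0.29, adjusted p = 0.109) and its groups overlapped. Of 7 T cell markers 5 were tested and 0 were called in either direction by edgeR under TMM, with 1 at an unadjusted p under 0.05, a median of 0.37, and 2 called higher with total-read scaling.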
